A study of Mus musculus with 8 samples.

Results

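The genes that make, sense, export and store cholesterol were followed as a set of 30 named genes in mouse peritoneal macrophages with and without Card9. They comprise 17 synthesis enzymes (6 of the mevalonate and isoprenoid steps and 11 of the squalene and sterol steps), 5 genes of the SREBP system, 6 genes of LXR, efflux and uptake control, and 2 genes of storage and transport in the cell. Members were found by matching the gene name on non-control spots of each array. All 30 were present among the 37008 gene names on the array, through 59 probes, and all 30 passed the filter on dim probes and were among the 18603 genes tested. The groups were wild-type mice (wt, 4 arrays) and mice lacking Card9 (Card9-/-, 4 arrays); strain, age and sex are not given in the labels. Card9 is an adaptor that links receptors for fungal cell walls to NF-kB. Both groups carried the same treatments: thioglycolate (1 ml of a 3% solution) by intraperitoneal injection, and zymosan, a yeast cell wall preparation, at 500 mg/kg for 4 h. Peritoneal cells were collected 4 d after thioglycolate, pellets of 4 or 5 mice per group were taken up in a red cell lysis buffer, and adherent cells were kept after 3 h of culture. Untreated mice were not analysed here, so every difference is between genotypes after zymosan. Whether each array stands for 1 mouse or for pooled mice is not stated, and p-values measure only the spread between these arrays, which may be technical.

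Cholesterol is built from acetyl units through mevalonate, isoprenoids, squalene and a series of sterols. When membrane sterol is low, Scap escorts the SREBP factors (Srebf1, Srebf2) out of the endoplasmic reticulum, they are cleaved, and they switch on the synthesis enzymes; when sterol is high, the Insig proteins hold Scap back. Oxysterols made from surplus cholesterol activate the LXR receptors (Nr1h3, Nr1h2), which switch on the exporters Abca1 and Abcg1, the lipoprotein component Apoe, and Mylip, a ubiquitin ligase that removes lipoprotein receptors. Macrophages rely on these routes because they take up the membranes and lipoproteins of what they engulf, and store the excess as esters made by Soat1.

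Levels are log2 processed signals minus the array's own 75th percentile, so a level of 0 is that percentile, and a level is compared only with the same probe on other arrays. Each array had 59305 non-control spots, of which 47.8% to 56.5% gave a signal well above background and 0 were saturated. At 1 probe, Card9, the deleted gene, was detected above background in wt replicates 2, 3 and 4 (processed signals 38.2, 1058 and 561). At that probe it was not in any Card9-/- array (3.60 to 11.9), nor in the library labelled wt replicate 1 (4.75). A second probe was above background in 2 wt arrays and 0 Card9-/- arrays. Its level in Card9-/- replicate 4 (-3.40) was below wt replicate 3 (-1.42). That level was above wt replicates 2 and 4 (-4.57 and -4.44) and the library labelled wt replicate 1 (-4.80). The extent of the deletion is not stated, so a probe outside it would check nothing. Xist, the RNA of the inactive X chromosome, was detected in each wt array and in no Card9-/- array, and the Y-linked Eif2s3y, Ddx3y and Uty in each Card9-/- array and in no wt array, so sex and genotype cannot be told apart. The wt arrays did not resemble one another equally: the library labelled wt replicate 1 and wt replicate 2 correlated at 0.985 over the genes tested, and each correlated with wt replicates 3 and 4 at 0.822 to 0.895. Slide 1 held every wt array together with Card9-/- replicate 4. The other Card9-/- arrays were on slides 2 and 3, so a slide term leaves the genotype difference to rest on Card9-/- replicate 4 alone.

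The labelled cell type was checked with 6 macrophage markers (Adgre1, Cd68, Itgam, Lyz2, Mertk and Fcgr1). All 6 were above background in wt replicates 3 and 4, against 4 each in wt replicate 2 and the library labelled wt replicate 1, and 5 in each Card9-/- array. The mean marker level was -0.34 in the library labelled wt replicate 1 and -0.22 in wt replicate 2, lay between 0.85 and 1.40 in the Card9-/- arrays, and was 5.03 in wt replicate 3 and 4.09 in wt replicate 4. Macrophage marker signal therefore spread over a wider range within wt than the Card9-/- arrays covered, and the Card9-/- arrays lay between the wt extremes. T cell markers averaged 0.95 to 1.48 in wt and 2.26 to 3.48 in Card9-/-, natural killer cell markers -2.25 to -1.49 and -0.94 to 1.42, and B cell markers 2.61 to 3.98 and 3.35 to 4.30. In such bulk RNA, fewer cells of a type and less RNA per cell cannot be told apart.

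The promoters of the set differ by role in the letters they hold, and 3 are shown. Hmgcs1 is shown because it alone held the searched letters of the sterol regulatory element (TCACNCCAC) among the members with a promoter. Variants of those letters were not searched. Abca1 and Mylip are shown because these efflux and uptake genes were high on the same wt arrays. Sequences run 5′ to 3′ from 250 bases before the start of transcription to 50 after it, from RefSeq on GRCm38.p6, with motif matches in capitals.
Hmgcs1 promoter (chr13:119690101-119690400, plus strand): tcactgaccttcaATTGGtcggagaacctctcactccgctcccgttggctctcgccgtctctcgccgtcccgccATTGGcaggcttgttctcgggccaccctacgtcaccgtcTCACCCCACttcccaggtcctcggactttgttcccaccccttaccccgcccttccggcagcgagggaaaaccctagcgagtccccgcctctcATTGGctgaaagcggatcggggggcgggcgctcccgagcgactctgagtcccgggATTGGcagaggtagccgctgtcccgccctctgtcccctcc
Abca1 promoter (chr4:53159846-53160145, minus strand): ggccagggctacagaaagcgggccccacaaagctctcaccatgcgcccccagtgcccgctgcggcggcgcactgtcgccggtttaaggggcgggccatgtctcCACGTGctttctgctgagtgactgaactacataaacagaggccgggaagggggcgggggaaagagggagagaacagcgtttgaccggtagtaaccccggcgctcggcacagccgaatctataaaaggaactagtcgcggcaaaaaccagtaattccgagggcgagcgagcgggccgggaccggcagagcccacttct
Mylip promoter (chr13:45389492-45389791, plus strand): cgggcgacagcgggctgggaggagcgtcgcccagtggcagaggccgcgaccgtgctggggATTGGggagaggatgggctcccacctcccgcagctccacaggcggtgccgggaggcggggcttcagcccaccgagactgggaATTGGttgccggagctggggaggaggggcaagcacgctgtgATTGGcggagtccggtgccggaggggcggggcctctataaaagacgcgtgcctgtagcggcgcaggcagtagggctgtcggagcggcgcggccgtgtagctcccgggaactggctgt
In Hmgcs1 the capitals mark the sterol regulatory element TCACCCCAC, the site that SREBP binds, at -137 from the start, and 4 CCAAT boxes. The Abca1 window held 1 E box (CACGTG) and 0 CCAAT boxes, and the Mylip window held 3 CCAAT boxes.

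RefSeq promoters matched 25 of the 30 genes, through 36 promoters; Fdps, Fdft1, Sqle, Abcg1 and Stard4 were not matched. Motifs were searched on both strands. The sterol regulatory element, searched as TCACNCCAC, was present in 1 of the 36 promoters (2.78%) and in 1.24% of all 32851 promoters of the table. The CCAAT box, searched as ATTGG and bound by NF-Y, a partner of SREBP, was present in 21 of 36 (58.3%), against 37.4% of all promoters. It was found in 14 of 14 synthesis genes with a promoter (14 of 17 promoters, 82.4%). Of the LXR, efflux and uptake genes with a promoter it was found in 1 of 5 (1 of 8 promoters, 12.5%). The E box was present in 7 of 36 (19.4%), against 7.15% of all promoters. By gene it was in 6 of 25: Hsd17b7, Sc5d, Dhcr7, Insig1, Scap and Abca1. The Scap promoters overlap and hold the same E box, so that site is counted more than once. Promoters of Nr1h3 and of Apoe also overlap, so counts by promoter are not counts of separate sequences. The LXR motif, a direct repeat with a spacer known as DR4, was searched only as an exact repeat of the same letters. In that strict form it was in 0 of 36 and in 0.0152% of all promoters. Variants of the repeat were not searched, so this count cannot show that Abca1 or any other member lacks an LXR site. All these motif counts are matches of letters in a 300-base window and describe the sequences alone.

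No cholesterol gene differed between the genotypes beyond the spread of the arrays. At an adjusted p of 0.05, 0 of 30 members passed by limma with Benjamini-Hochberg adjustment over all genes, where 5 of 18603 genes passed (0.0269%). At an unadjusted p under 0.05 the count was 0 of 30, where 7.22% of all genes passed (2.63% higher and 4.59% lower in Card9-/-). With array quality weights it was 5 of 30, all higher in Card9-/- (Sqle at a limma adjusted p of 0.0538, and Abca1, Nr1h3, Msmo1 and Nsdhl at adjusted p-values of 0.125 to 0.139), where 5576 of the 18603 genes passed. Without Card9-/- replicate 1 it was 1 of 30, Hsd17b7 (difference 1.01, limma adjusted p = 0.958), where 944 of the 18603 genes passed. On slide 1 alone Dhcr7 differed by -2.59, from 1 Card9-/- array in which its signal was not above background. For 0 of 30 did the arrays of the groups not overlap, where 5.22% of all genes had groups that did not overlap. The point estimates were lower in Card9-/- for 21 members and higher for 9, where 56.3% of all genes were lower. The median difference was -0.20, and over all genes -0.088. Adjusted p-values of the members ran from 0.775 to 0.997. The widest intervals belonged to Nr1h3, Apoe and Abca1, and for Nr1h3 the interval of the ratio ran from 0.110 to 7.79 times the wt level. Without wt replicate 3 the median difference was 0.073, with 14 members lower, and on slide 1 alone it was -0.54, with 22 lower, where the median of all genes was -0.26.

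**Figure D1:**
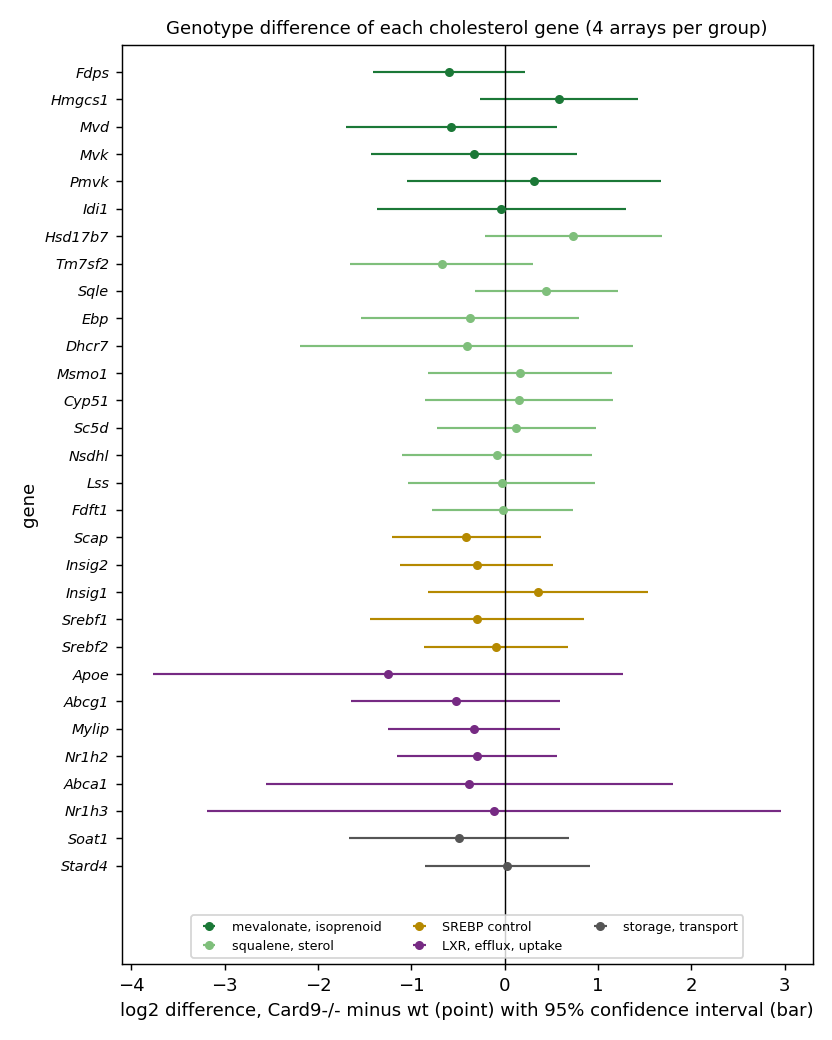
Log2 difference of each of the 30 genes (horizontal axis, Card9-/- minus wt, point) with its 95% confidence interval from limma (bar), grouped by role in colour, 4 arrays per genotype. All 30 intervals cross 0, and those of Apoe (-3.76 to 1.26), Abca1 (-2.56 to 1.80) and Nr1h3 (-3.18 to 2.96) are the widest.

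The enzymes of the mevalonate and isoprenoid steps pointed in both directions, with 4 of 6 lower and 2 higher in Card9-/- and a median difference of -0.18. Hmgcs1, the cytosolic synthase that makes the precursor of mevalonate, stood at 1.97, 2.22, 1.91 and 2.52 in wt and at 3.45, 2.35, 2.80 and 2.34 in Card9-/-, in the order of the replicate numbers, which is kept throughout. Card9-/- replicate 1 was the highest array, but Card9-/- replicates 2 and 4 lay within the wt range. The means were 2.16 ± 0.28 (SD, n = 4) and 2.74 ± 0.52 (SD, n = 4), a difference of 0.58 (SE 0.38, 95% interval -0.26 to 1.43), with a limma adjusted p of 0.805 and an exact two-sided permutation p of 0.114. It was 0.34 without Card9-/- replicate 1. Its probe lies on an unplaced piece of chromosome 13 in mm9 (114793 to 114852 of that piece). A second, dimmer Hmgcs1 probe, above background on 3 arrays of each genotype, gave a difference of 0.092. Fdps, which joins isoprenoid units into farnesyl diphosphate, stood at 1.38, 1.85, 1.63 and 2.23 in wt and at 0.85, 1.69, 1.31 and 0.84 in Card9-/-. The highest Card9-/- array overlapped the wt range, and the other 3 Card9-/- arrays were below every wt array. The difference was -0.60 (SE 0.36, interval -1.41 to 0.22, limma adjusted p = 0.787, exact permutation p = 0.0857), or 0.660 times the wt level.

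Mvd and Mvk, the decarboxylase and the kinase of mevalonate, were set by single arrays. Mvd stood at -0.02, 0.00, 1.98 and 0.16 in wt and at 0.24, -0.35, 0.27 and -0.32 in Card9-/-. Wt replicate 3 was far above the 7 other arrays, which lay between -0.35 and 0.27. The difference of -0.57 (SE 0.50, limma adjusted p = 0.864) shrank to -0.087 without that array. Mvk stood at -0.38, 0.01, 1.67 and 0.62 in wt and at -0.02, 0.77, -0.26 and 0.10 in Card9-/-, again highest in wt replicate 3. Its difference was -0.33 (SE 0.49, limma adjusted p = 0.925), 0.067 without wt replicate 3, and 0.79 at its other probe. Pmvk, the next kinase, differed by 0.31 (interval -1.05 to 1.68), with arrays from 1.38 to 3.76 in wt and from 2.29 to 4.00 in Card9-/-. Idi1, the isomerase of the isoprenoid unit, differed by -0.04 (interval -1.37 to 1.30), with arrays from -0.11 to 2.36 in wt and from 0.56 to 1.98 in Card9-/-. Both were thus spread over more than 1 log2 unit within each genotype.

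The enzymes that turn farnesyl units into squalene and sterols were likewise divided, with 6 of 11 lower, 5 higher and a median difference of -0.02. Hsd17b7, a sterol ketone reductase, had the largest positive difference of the 30 genes. It was almost level in wt, at -1.20, -0.99, -1.16 and -1.01, and spread out in Card9-/-, at -1.19, -0.76, 0.49 and 0.03. Card9-/- replicates 2, 3 and 4 were above every wt array, and Card9-/- replicate 1 lay within the wt range. The difference was 0.74 (SE 0.42, interval -0.21 to 1.69, limma adjusted p = 0.775, exact permutation p = 0.114), or 1.66 times the wt level, and it was 0.45 without Card9-/- replicate 3. Sqle, the squalene epoxidase that takes the first oxygen-dependent step, stood at -0.46, -0.34, 0.05 and 0.29 in wt and at 0.09, 0.48, 0.65 and 0.12 in Card9-/-. Card9-/- arrays were above the library labelled wt replicate 1 and wt replicates 2 and 3, and replicates 1 and 4 were below wt replicate 4. The difference was 0.45 (SE 0.34, interval -0.32 to 1.21, limma adjusted p = 0.841, exact permutation p = 0.114).

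Tm7sf2, a sterol reductase that acts after the ring is closed, stood at -1.39, -0.95, 0.22 and -0.93 in wt and at -1.41, -0.99, -1.32 and -2.03 in Card9-/-. The high array was wt replicate 3 and the low one Card9-/- replicate 4. The difference was -0.67 (SE 0.44, interval -1.66 to 0.31, limma adjusted p = 0.806), and -0.35 without wt replicate 3. Ebp, a sterol isomerase, stood at 2.96, 3.21, 5.26 and 3.95 in wt and at 3.81, 3.63, 3.32 and 3.14 in Card9-/-. The Card9-/- arrays lay inside the wt range, and wt replicate 3 was the highest. The difference was -0.37 (SE 0.52, limma adjusted p = 0.919), while a second Ebp probe gave 0.57. The other 7 enzymes (Fdft1, which makes squalene, the ring-closing Lss, the demethylase Cyp51, and Msmo1, Nsdhl, Sc5d and Dhcr7) had differences from -0.41 to 0.16 and limma adjusted p-values from 0.949 to 0.997. Dhcr7, the final reductase, was detected in all 4 wt and in 2 Card9-/- arrays, at -3.31, -3.82, -2.27 and -3.09 in wt and -3.84, -2.98, -1.58 and -5.71 in Card9-/-. It passed the filter through wt alone, and Card9-/- replicate 4 lay below that array's lowest level well above background (-3.47), so the Card9-/- mean is not a measured level; Dhcr7 was singled out after its values were seen.

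**Figure D2:**
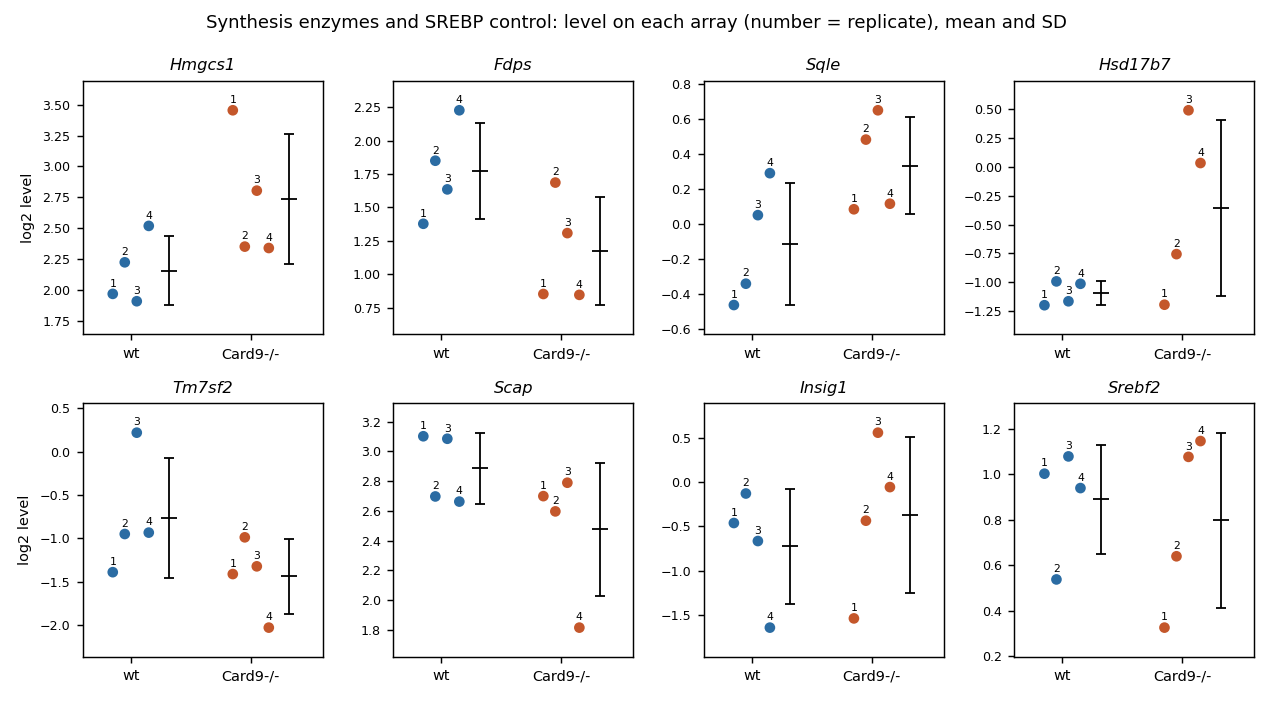
Level of 5 synthesis enzymes and 3 SREBP system genes on each array (vertical axis, log2 signal relative to the array's 75th percentile, scaled per panel; numbers are replicates), with the group mean and SD as bars. Hsd17b7 sits between -1.20 and -0.99 in wt and reaches 0.49 in Card9-/-, and in every panel arrays of the groups overlap.

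The SREBP system showed 4 of 5 genes lower and 1 higher, with a median difference of -0.30. Scap, the sterol-sensing escort, stood at 3.10, 2.70, 3.08 and 2.66 in wt and at 2.70, 2.60, 2.79 and 1.82 in Card9-/-. Card9-/- replicate 4 was lowest by a wide margin, and the other 3, from 2.60 to 2.79, lay near wt replicates 2 and 4. The difference was -0.41 (SE 0.35, interval -1.21 to 0.39, limma adjusted p = 0.860), and -0.19 without that array. Insig2 stood at 0.36, 0.59, -0.20 and 0.68 in wt and at 0.16, 0.40, 0.16 and -0.48 in Card9-/-, with a difference of -0.30 (SE 0.36, limma adjusted p = 0.904), -0.12 without Card9-/- replicate 4 and -0.48 without wt replicate 3. Insig1, whose own gene is an SREBP target in other settings, stood at -0.46, -0.13, -0.67 and -1.65 in wt and at -1.54, -0.44, 0.56 and -0.06 in Card9-/-. It pointed up, by 0.36 (SE 0.53, limma adjusted p = 0.924), with a low array in each group. It was 0.051 without wt replicate 4, 0.048 without Card9-/- replicate 3 and 0.75 without Card9-/- replicate 1. Neither retention protein thus separated the genotypes, and the pair had opposite signs at the probes that stood for them. The other kept Insig2 probes gave 0.088 and -0.31, so the opposite signs depended on the probe.

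Srebf1 and Srebf2 encode the SREBP factors themselves. Srebf1 stood at 1.84, 1.81, 3.91 and 2.95 in wt and at 2.61, 2.37, 2.43 and 1.92 in Card9-/-, inside the wt range on every Card9-/- array. The difference was -0.30 (SE 0.51, limma adjusted p = 0.937) and 0.13 without wt replicate 3. Srebf2, the factor most tied to cholesterol synthesis, ranged from 0.54 to 1.08 in wt and from 0.33 to 1.15 in Card9-/-, with a difference of -0.09 (interval -0.86 to 0.68, limma adjusted p = 0.979). The factors thus differed in spread between arrays and not, beyond that spread, between genotypes.

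The LXR, efflux and uptake genes shared a direction and a pattern across arrays. All 6 had a lower mean in Card9-/-, with a median difference of -0.36, and none passed the test. In all 6 wt replicate 3 was the highest array, as it was in 27.0% of all genes tested, and in all 6 the wt SD exceeded the Card9-/- SD, as it did in 53.9% of all genes. The median SD was 1.603 in wt and 0.357 in Card9-/-, against 0.676 and 0.594 over all genes. Centred on its own mean over the 8 arrays, the median gene of this role stood at -0.998, -1.02, 1.92 and 0.83 in wt and at 0.08, -0.46, -0.30 and -0.34 in Card9-/-. The wt arrays thus bracketed the Card9-/- arrays. Without wt replicate 3, 4 of 6 were lower (median -0.05), without wt replicate 4 also 4 of 6 (median -0.30), and with array quality weights 0 of 6 (median 0.46). The median was -0.93 without the library labelled wt replicate 1 and -0.79 without wt replicate 2, with 6 of 6 lower in each case.

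Apoe, which carries cholesterol on lipoproteins that leave the cell, was spread widely in wt. It stood at 4.10, 4.03, 9.50 and 7.44 in wt and at 4.86, 4.63, 5.44 and 5.15 in Card9-/-. The library labelled wt replicate 1 and wt replicate 2 were the lowest of the 8 arrays and wt replicates 3 and 4 the highest, with all 4 Card9-/- arrays between them. The means were 6.27 ± 2.68 (SD, n = 4) and 5.02 ± 0.35 (SD, n = 4), a difference of -1.25 (SE 1.12, interval -3.76 to 1.26), limma adjusted p = 0.864, exact permutation p = 0.429. Single wt arrays moved that difference: it was -0.17 without wt replicate 3, -0.86 without wt replicate 4, -1.97 without the library labelled wt replicate 1 and -1.99 without wt replicate 2. Its second probe gave 2.26, 2.02, 8.35 and 5.35 in wt and 2.297 to 3.33 in Card9-/-, with a difference of -1.601. Both probes lie on chromosome 7 (mm9, 20281732 to 20281791 and 20281578 to 20281627).

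Abca1, which loads cholesterol onto lipid-poor apolipoproteins, and Nr1h3, the LXR form prominent in macrophages, had the same order; their arrays are given although they fall outside the naming rule, a choice made after their values were seen. Abca1 (chromosome 4, mm9, 53043944 to 53044003) stood at -0.36, -0.09, 3.98 and 3.52 in wt and at 1.65, 1.19, 1.38 and 1.31 in Card9-/-. The Card9-/- arrays lay within 0.45 of one another, between the low and the high wt arrays. The difference was -0.38 (SE 0.97, interval -2.56 to 1.80, limma adjusted p = 0.965), and it was 0.36 without wt replicate 3. Nr1h3 was not well above background in the library labelled wt replicate 1 and wt replicate 2, at -6.01 and -5.12, and stood at 1.07 and -1.87 in wt replicates 3 and 4. In Card9-/- it stood at -2.95, -3.52, -3.90 and -1.99 and was above background on 3 of 4 arrays, the group through which it passed the filter. Its difference of -0.11 (interval -3.18 to 2.96, limma adjusted p = 0.995) therefore averages over dim and bright wt arrays.

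Abcg1, which passes cholesterol to mature high-density lipoprotein, stood at 1.43, 1.45, 3.32 and 2.37 in wt and at 2.32, 1.41, 1.45 and 1.30 in Card9-/-. Wt replicates 3 and 4 and Card9-/- replicate 1 were the high arrays. The difference was -0.53 (SE 0.50, limma adjusted p = 0.869), and -0.13 without wt replicate 3. Mylip stood at 1.94, 1.79, 3.30 and 2.54 in wt and at 1.90, 2.18, 1.83 and 2.33 in Card9-/-, with a difference of -0.33 (SE 0.41, limma adjusted p = 0.905), and -0.028 without wt replicate 3. Nr1h2, the widely expressed LXR form, stood at 4.28, 4.00, 5.15 and 4.40 in wt and at 4.63, 3.85, 4.26 and 3.90 in Card9-/-, with a difference of -0.30 (SE 0.38, limma adjusted p = 0.905); it was -0.066 without wt replicate 3, and its sign turned to 0.097 with quantile normalization. The LXR receptors and their targets were thus high on the same array, wt replicate 3, and did not separate the genotypes.

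**Figure D3:**
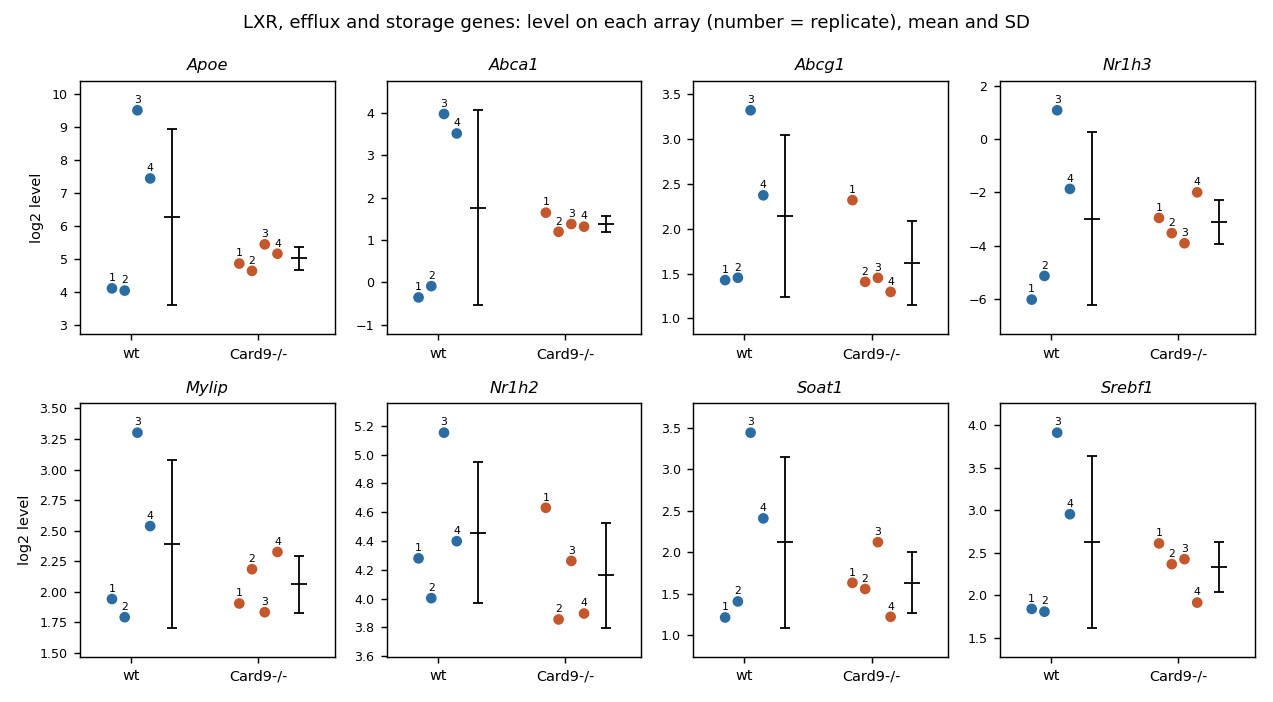
Level of the LXR, efflux and uptake genes and of Soat1 and Srebf1 on each array (vertical axis, log2 signal relative to the array's 75th percentile, scaled per panel; numbers are replicates), with group mean and SD as bars. Apoe runs from 4.03 to 9.50 in wt and from 4.63 to 5.44 in Card9-/-, and wt replicate 3 is the top array in every panel.

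The macrophage markers were high on the same arrays as this role: wt replicates 3 and 4 had the highest marker levels of the 8 arrays and the library labelled wt replicate 1 and wt replicate 2 the lowest. Markers of resident peritoneal macrophages (Gata6, Timd4, Icam2, Alox15, Serpinb2, Prg4 and Garnl3) averaged -2.73, -2.31, 5.38 and 3.71 in wt and -1.90, -0.61, -0.28 and -0.02 in Card9-/-. Fat cell markers averaged -3.77 to -2.68 in wt and -3.55 to -2.58 in Card9-/-, with Adipoq and Cidec not well above background on any array. Mesothelial markers averaged -5.51 to -1.68 in wt, highest in wt replicate 3, and -4.26 to -2.70 in Card9-/-. The 5 mesothelial markers were all above background in wt replicate 3 and in Card9-/- replicate 2, 4 were in wt replicate 4, and 1 or 2 were in the other arrays. Neutrophil markers averaged 1.26 to 2.78 in wt and 0.11 to 3.56 in Card9-/-, and red cell markers 0.33 to 4.67 and 3.74 to 8.03. The part of cell makeup in the pattern of the efflux genes was not tested.

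**Figure D4:**
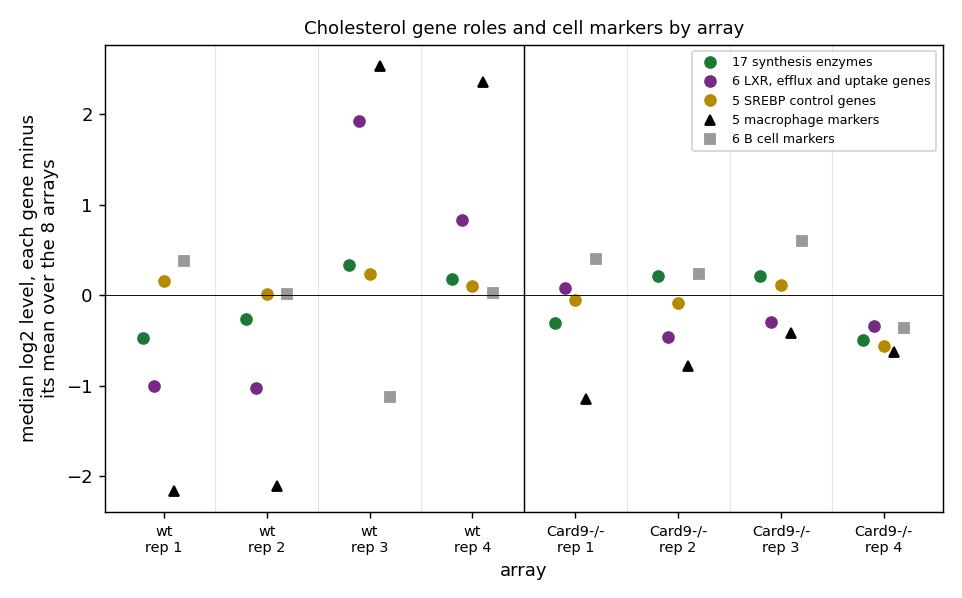
Median level of the genes of a role or marker list on each array (vertical axis, log2, each gene minus its mean over the 8 arrays; horizontal axis, arrays by genotype), for 17 synthesis enzymes, 6 LXR, efflux and uptake genes, 5 SREBP system genes, 5 macrophage markers and 6 B cell markers. The efflux genes and macrophage markers lie lowest in the library labelled wt replicate 1 and wt replicate 2 and highest in wt replicates 3 and 4, while the synthesis enzymes stay between -0.50 and 0.33.

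The synthesis enzymes did not follow that order as closely. Their centred median was -0.47, -0.27, 0.33 and 0.18 in wt and -0.31, 0.21, 0.21 and -0.50 in Card9-/-. Wt replicate 3 was the highest array for 7 of 17, beside 27.0% of all genes. The wt SD exceeded the Card9-/- SD for 10 of 17, beside 53.9% of all genes. With all arrays 10 of 17 were lower in Card9-/- (median -0.03), beside 56.3% of all genes. Without wt replicate 3, 5 of 17 were lower and 12 higher (median 0.15), where the median of all genes was -0.072. On slide 1 alone 12 of 17 were lower (median -0.51), where the median of all genes was -0.26.

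**Figure D5:**
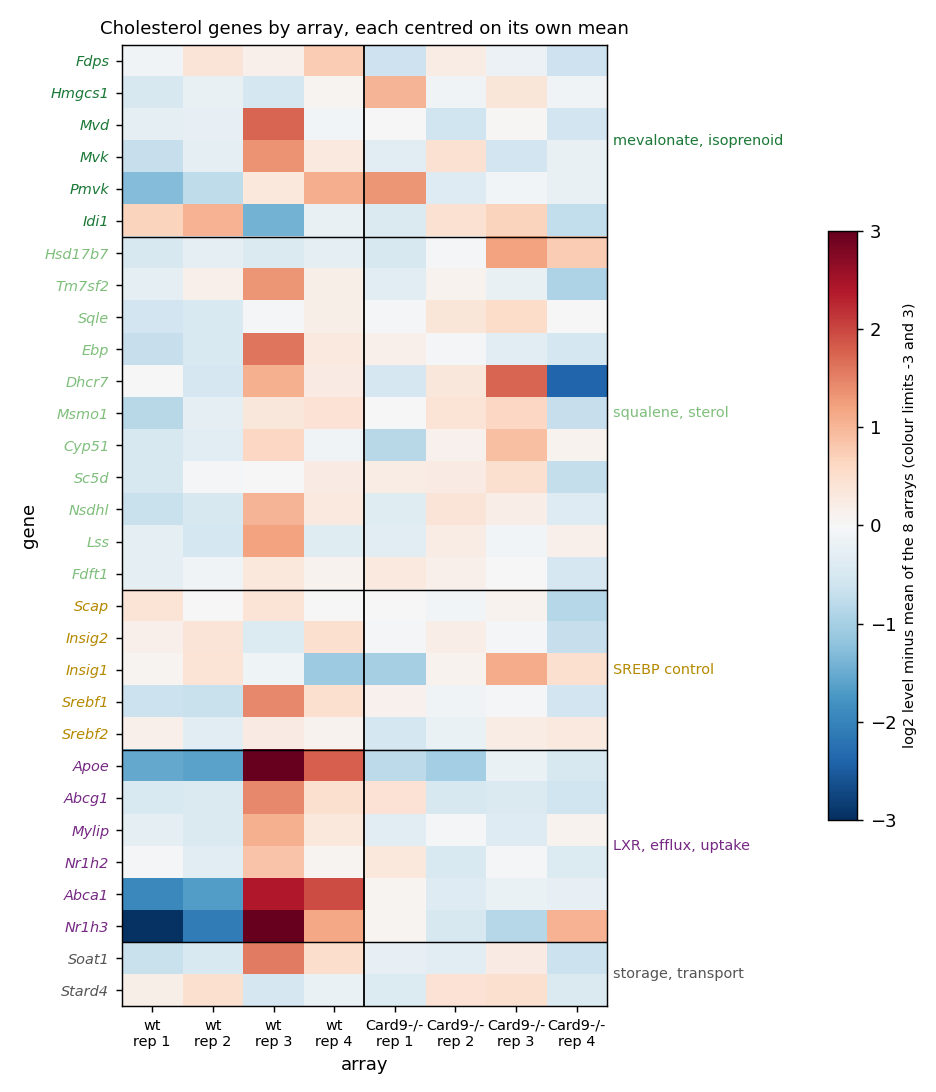
Level of the 30 genes (rows, grouped by role) on the 8 arrays (columns), each gene minus its mean over the arrays, in log2 units as colour, with the scale ending at -3 and 3. Apoe, Abca1 and Nr1h3 are low in the library labelled wt replicate 1 and wt replicate 2 and high in wt replicate 3, and no row splits by genotype.

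Of the storage and transport genes, Soat1, the enzyme that esterifies cholesterol for storage, stood at 1.21, 1.41, 3.44 and 2.41 in wt and at 1.63, 1.56, 2.12 and 1.22 in Card9-/-. It was highest in wt replicate 3, as were the efflux genes. The difference was -0.48 (SE 0.52, interval -1.66 to 0.69, limma adjusted p = 0.892), and its other 3 kept probes gave -0.31, -0.66 and -0.86. Without wt replicate 3 it was -0.043. Stard4, which carries sterol between membranes, stood at 0.46, 0.78, -0.22 and 0.08 in wt and at -0.13, 0.72, 0.77 and -0.13 in Card9-/-, with a difference of 0.03 (SE 0.39, limma adjusted p = 0.996). A second, dimmer Stard4 probe gave a difference of 0.47. Of the 18 members with several kept probes, 11 had differences of 1 sign over all probes and 7 of both signs.

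Other genes of sterol handling gave the same picture, with 0 of 23 measured (of 25 listed) past the adjusted threshold, 15 lower, 8 higher and a median difference of -0.24. Wt replicate 3 was the highest array for 13 of these 23, beside 27.0% of all genes. The wt SD exceeded the Card9-/- SD for 16 of 23, beside 53.9% of all genes. At an unadjusted p under 0.05 the count was 1 of 23, beside the 7.22% of all genes. That gene was Scarb1, a receptor that exchanges cholesterol with high-density lipoprotein, which stood at -0.18, 0.05, 1.70 and 0.84 in wt and at -0.75, -0.63, -0.56 and -0.83 in Card9-/-. Its arrays did not overlap between the groups, with a difference of -1.30 (SE 0.45, interval -2.31 to -0.28, limma unadjusted p = 0.0175, adjusted p = 0.590). Osbp, a sterol carrier at membrane contacts, did not overlap either, with -0.43, -0.62, -0.02 and -0.18 in wt and -1.22, -0.86, -0.85 and -1.17 in Card9-/- (difference -0.71, limma adjusted p = 0.693). Stard3, a sterol transfer protein of late endosomes, differed by -1.11 (limma adjusted p = 0.718), with overlapping arrays. The groups thus did not overlap for 2 of 23, beside 5.22% of all genes.

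Fatty acid synthesis, which Srebf1 governs, was measured through 8 of 10 listed genes. Of these, 5 were higher and 3 lower, with a median difference of 0.19 and 0 past either threshold. Elovl6, a fatty acid elongase, differed by 1.12 (limma adjusted p = 0.774), and stood at 0.58, 1.15, -1.67 and 0.11 in wt and at 0.05, 1.59, 1.39 and 1.61 in Card9-/-. Wt replicate 3 was its lowest array, where it was the highest for Srebf1. Acss2, which makes acetyl-CoA from acetate, differed by 0.75 (limma adjusted p = 0.776), and Acaca, which commits acetyl-CoA to fatty acids, by -0.78 (limma adjusted p = 0.841). Wt replicate 3 was the highest array for 2 of these 8 genes, Acaca (4.55) among them, beside 27.0% of all genes. The list thus had no shared order relative to Srebf1.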

How the data were processed

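RNA of 8 samples was hybridised to single-colour Agilent arrays, 4 per genotype. Per the file headers, the authors' scanner output gives spot intensity from Agilent Feature Extraction 10.7.1.1, background-subtracted and detrended within each array and not scaled between arrays. The authors' deposited value table holds log2 values that look quantile normalized, with no further step stated. Of its 56745 rows, the first 49670 matched the scanner values of their own probe better than those of the next probe. These were used, as an alternative only. The match was not exact. After each array's median shift was removed, 12.1% of their values lay more than 1.5 log2 units from the scanner value. In the later rows it was 62.5%.

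From the scanner files, control and outlier-flagged spots were left out, and each processed signal was expressed in log2 relative to the 75th percentile of its array. A probe entered if 3 of 4 arrays in either genotype gave a signal well above background and 3 arrays per genotype were usable. The probe with the highest mean stood for its gene. Probe coordinates are those of the files, on mm9. The genotype difference was fitted by limma 3.58.1 under R 4.3.3 (lmFit, eBayes, two-sided, Benjamini-Hochberg over 18603 genes). Exact permutation tests used all 70 splits of the arrays, with 0.0286 the smallest p they can give. The fit was tested on simulated data.

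Members and lists were chosen with earlier results of these data known. Per-array levels were given for up to 4 members of each role with the smallest unadjusted p, and of other lists up to 3 genes were named; 1 listed macrophage marker is not reported here. Alternatives were another scaling, quantile normalization, normexp, no filter, the authors' table, the mean of a gene's probes, slide as a block, slide 1 alone, a replicate block, array weights, wt replicates 1 and 2 averaged, and leaving out each array. The main fit did not treat the numbers of the replicates as pairs. Same-numbered arrays deviated from their group means with correlations from -0.28 to 0.25. With 4 arrays per genotype, these cannot decide whether the numbers pair the samples. The number of arrays limits the precision.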

Additional observations from a re-analysis of the deposited data

Results flagged for a closer look

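Of 60 groups of 4 arrays tested (30 genes in each genotype), 3 had an array standing apart from the others by Dixon's criterion; chance alone flags about 1 group in 20. Mvd, the mevalonate decarboxylase, was at 1.98 in wt replicate 3, where the nearest wt array was at 0.16. Lss, the ring-closing enzyme, was at -1.01 in wt replicate 3, where the nearest wt array was at -2.49. Abcg1, the exporter to high-density lipoprotein, was at 2.32 in Card9-/- replicate 1, where the nearest Card9-/- array was at 1.45.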

How the results depend on the processing

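No cholesterol gene passed the adjusted threshold under any of the 19 alternatives. For the 20 members given array by array (18 by the naming rule, with Abca1 and Nr1h3), 345 of 379 recomputed differences kept their direction and 34 reversed. Over all 30 members it was 487 of 569, and 8 members never reversed. These tallies include settings that could not change a sign. Dropping the filter and adding the replicate block returned the members' main differences. Slide as a block returned the same differences as slide 1 alone. The tallies therefore do not measure robustness. The count of genes called over the whole array, 5, was 0 with slide as a block, 0 on slide 1 alone, 3 with the replicate block and 1170 with array weights, which gave wt replicate 2 a weight of 10.1 and wt replicate 3 one of 0.177; leaving out each array gave 5 to 6. The median difference over members turned to 0.33 with array weights and ranged from -0.35 to 0.073 (without wt replicate 3) when each array was left out. With array weights the signs also turned for Mvk (0.34), Ebp (0.33), Srebf1 (0.51), Insig1 (-0.028), Nr1h3 (1.70), Nr1h2 (0.0040), Abca1 (1.32), Abcg1 (0.047), Apoe (0.73), Mylip (0.19), Soat1 (0.29) and Stard4 (-0.13). Stard4 gave -0.14 with median scaling and -0.41 with slide as a block and on slide 1 alone, where Nr1h3 gave 0.99. Nr1h2 gave 0.10 with quantile normalization and 0.060 in the authors' table. The mean of a gene's probes gave 0.23 for Mvk and 0.10 for Ebp. Leaving out each array in turn, Mvk ranged from -0.61 to 0.067, Ebp from -0.67 to 0.10, Srebf1 from -0.57 to 0.13, Nr1h3 from -1.12 to 1.24, Abca1 from -1.09 to 0.36 and Stard4 from -0.13 to 0.20. The cause was not tested. The replicate block changed no other call. Median scaling moved the median of all genes by -0.18, normexp by 0.12, slide by -0.17 and no filter by 0.40. Signal over background limits Nr1h3, Dhcr7 and Nsdhl, which were not well above background on every array.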
